A study of Mus musculus with 51 samples.

Results

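Postnatal day 3 (P3) gonads of mice carrying 1 R111G allele of *Dmrt1* beside 1 wild-type allele (*Dmrt1* R111G/+) were compared with P3 gonads carrying 1 deleted and 1 wild-type allele (*Dmrt1* +/-). Each genotype has 3 RNA-seq libraries, which are 6 of the 30 RNA libraries of the study, and 15837 of 55401 counted genes had enough reads to be tested. The comparison asks which messenger RNAs differ early, before the age at which germ cells are lost from R111G/+ testes. Its groups differ in 2 ways at once: R111G/+ gonads have the mutant allele, and they have no deleted allele. No wild-type P3 library was analysed here, so an effect of the mutant protein and an effect of gene dose cannot be told apart in this comparison. Libraries of P3 *Dmrt1* -/- gonads and of P3 *Dmrt1* R111G/- gonads, 3 of each, were fitted together with the 6. Also used below are P28 gonads of *Dmrt1* +/+, +/-, -/- and R111G/+ mice, and isolated P7 Sertoli cells titled +/+ and -/-. The study describes its +/-, -/- and R111G/+ gonads as XY. All mice were of mixed 129Sv and C57Bl/6J background, and the R111G line was made by gene editing and goes back to 1 founder animal. Nothing in the labels says that libraries come from separate litters, and p-values measure the spread between these libraries.

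DMRT1 is a transcription factor with a DM domain, a zinc-binding domain that contacts both the major and the minor groove of DNA. In the postnatal testis it is made in Sertoli cells, the supporting cells of the seminiferous tubules, and in spermatogonia. It keeps Sertoli cells male by holding down genes of the ovarian granulosa cell and maintaining male ones, and it binds DNA as several subunits together. R111 is an arginine of the DM domain, and its change to glycine in the human protein is associated with dominant XY gonadal dysgenesis.

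The edited arginine codon lies in exon 1 of *Dmrt1* (GRCm38, plus strand, codon at chr19:25506178-25506180). It is codon 109 of the mouse reading frame, and the allele carries the number of the human residue. The stretch of reference coding sequence around it, shown because it is the only difference the R111G allele was designed to make in the protein, runs over chr19:25506130-25506201 with the edited codon in capitals:
*Dmrt1* exon 1: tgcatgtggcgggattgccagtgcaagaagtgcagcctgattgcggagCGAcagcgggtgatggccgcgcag
The deposited counts are summed over the whole gene, so they count transcripts of both alleles and do not separate them.

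Read totals of the +/- libraries ran from 7035359 to 8053869 counts and those of the R111G/+ libraries from 8476708 to 9101672. Levels below are CPM, reads scaled to a fixed library total, scaled by trimmed mean of M values, and a gene was called where edgeR's quasi-likelihood test gave an adjusted p below 0.05 and the groups differed by more than 2-fold. All 6 libraries held the markers of a neonatal testis. *Amh*, the Sertoli cell hormone that makes the female ducts regress, ran from 422 to 940 CPM, *Cyp17a1*, an androgen synthesis enzyme of Leydig cells, from 139 to 311 CPM, and *Ddx4*, a germ cell RNA helicase, from 28.3 to 93.6 CPM. Replicate 2 of the +/- group stood apart. Its erythroid markers (hemoglobins and other red cell genes) summed to 3117 CPM against 629 and 1020 in the other +/- libraries and 448, 896 and 661 in R111G/+ libraries, and its *Amh* level was the lowest of the 6. The number of called genes and the erythroid values are given with and without it.

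*Dmrt1* itself (chromosome 19 from 25505618 to 25604329) was the first check of the genotypes. It stood at 55.9, 86.3 and 73.7 CPM in +/- gonads and at 137, 112 and 154 CPM in R111G/+ gonads. The groups do not overlap, and the ratio of their means was 1.87. The -/- gonads held 3.11, 2.24 and 3.54 CPM, and the R111G/- gonads 66.0, 79.4 and 55.6 CPM, close to the +/- gonads. The mean was 134 ± 21.3 CPM (SD, n = 3) in R111G/+ gonads, the only P3 genotype here with 2 alleles that were not deleted. It was 72.0 ± 15.3 and 67.0 ± 11.9 CPM in those with 1, and 2.96 ± 0.664 CPM in those with none. At P28, scaled separately, *Dmrt1* stood at 38.3 ± 4.68 CPM in wild-type (+/+) testes and 41.5 ± 15.6 CPM in +/- testes. P28 R111G/+ testes held 60.8 ± 13.9 CPM. Whether the P3 level follows allele number or the R111G allele was not tested. The R111G/+ to +/- difference was 0.90 ± 0.18 (log2, SE) with an adjusted p of 0.0549 in edgeR's test over all genes, just short of the threshold. An exact two-sided permutation test gave p = 0.1, the smallest that 3 libraries against 3 allow.

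Few genes separated the genotypes at P3. Of the 15837 genes tested, 21 were called (0.133% of all tested), of which 13 were higher in R111G/+ gonads (0.0821%) and 8 lower (0.0505%). The median log2 fold change over all genes was -0.00415. A further 8 genes passed the adjusted p but changed less than 2-fold, which makes 29 genes at any fold (0.183%). An unadjusted p below 0.05 was found for 913 genes, 5.76% of those tested. Among the called genes the higher ones ranged from 2.12- to 54.1-fold and the lower ones from 2.62- to 29.0-fold. The groups of all 21 called genes did not overlap, while over all tested genes 4.42% had every R111G/+ library above every +/- library and 5.01% had every one below. Without +/- replicate 2, 15 genes were called higher and 22 lower, and 18 of the 21 were among them.

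**Figure D1:**
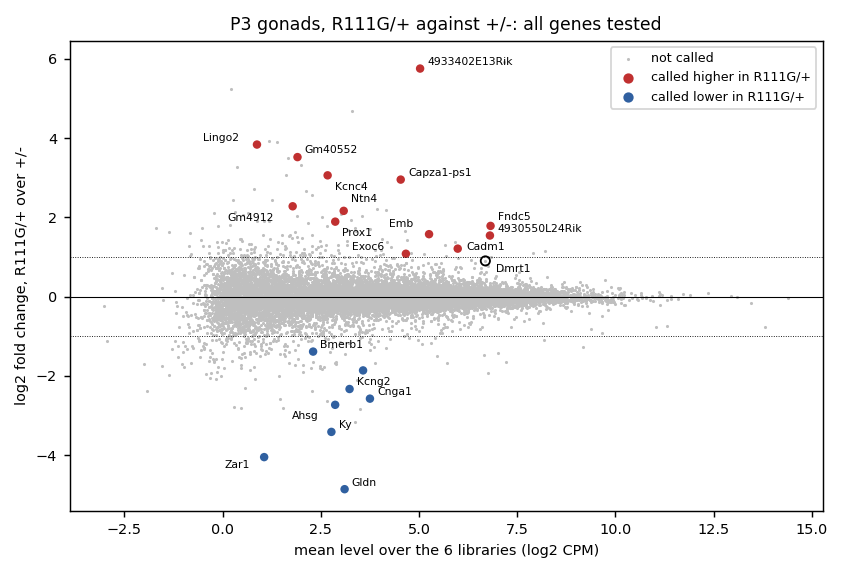
Log2 fold change of R111G/+ over +/- P3 gonads (y axis) against the mean level of the 6 libraries in log2 CPM (x axis), 1 point for each of 15837 genes. The 13 genes called higher (red) and 8 called lower (blue) are coloured, 20 of them with their symbols, *Dmrt1* is circled, and dotted lines mark 2-fold.

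The strongest gain was in *4933402E13Rik*, a protein-coding gene on the X chromosome (62283499 to 62292078, plus strand). Its levels were 0.764, 1.92 and 0.845 CPM in +/- gonads and 65.2, 37.9 and 89.2 CPM in R111G/+ gonads. The gene was near silent in all +/- libraries and well detected in all R111G/+ libraries, a log2 difference of 5.76 ± 0.58 (SE; adjusted p = 0.00102, edgeR). The R111G/- gonads lay in between at 8.05 ± 4.83 CPM (SD, n = 3), and -/- gonads held 0.829 ± 0.689 CPM. In isolated P7 Sertoli cells, scaled separately, control cells held 84.9, 66.1 and 247 CPM and *Dmrt1* -/- cells 0.219, 0.197 and 0.411 CPM. The controls are titled *Dmrt1* +/+, while the study's text describes heterozygous cells. The study isolated its P7 Sertoli cells from mice carrying the *Dhh*-Cre recombinase, and its Hi-C figure labels such cells as floxed for *Dmrt1*. P7 cells titled -/- may therefore carry *Dmrt1* alleles deleted by Cre, unlike the -/- gonads. *Dmrt1* itself stood at 207 ± 54.3 CPM in the P7 controls and at 28.4 ± 8.58 CPM in the -/- cells (SD, n = 3).

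Another X-linked gene 3360 kb away, *4930550L24Rik* (58909360 to 58920304), was at 67.9, 57.0 and 46.5 CPM in +/- gonads and at 166, 150 and 184 CPM in R111G/+ gonads. It was already well expressed in the controls and rose 2.91-fold (log2 1.54 ± 0.20, adjusted p = 0.00754, edgeR). Here the R111G/- gonads were at 10.8 ± 2.08 CPM and the -/- gonads at 7.81 ± 3.03 CPM, both below the +/- gonads. The third called X-linked gene was *Gm4912*, annotated as an unprocessed pseudogene, with 10, 9 and 7 reads in +/- libraries and 50, 46 and 57 in R111G/+ libraries. Its difference was 2.28 ± 0.39 (adjusted p = 0.0325), and the -/- gonads had 2, 3 and 0 reads. All 3 called genes of the X chromosome were higher in R111G/+ gonads. The X chromosome held 14.3% of the called genes and 3.93% of the tested ones, and its 622 tested genes had a median log2 fold change of 0.00155.

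*Fndc5*, the precursor of the secreted peptide irisin, rose from 64.3, 43.6 and 44.5 CPM to 189, 144 and 193 CPM (3.45-fold, log2 1.79 ± 0.18, adjusted p = 0.00102, edgeR). *Emb*, which encodes the cell-surface glycoprotein embigin, a partner of monocarboxylate transporters, rose from 15.8, 18.7 and 23.1 CPM to 67.2, 54.9 and 49.6 CPM (log2 1.58 ± 0.18, adjusted p = 0.0020). The groups did not overlap for either gene. In R111G/- gonads, which have the mutant allele and no wild-type one, *Fndc5* stood at 170 ± 16.7 CPM and *Emb* at 75.0 ± 11.1 CPM, while the -/- gonads held 58.7 ± 11.7 and 12.2 ± 2.12 CPM.

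*Lingo2*, a transmembrane protein with leucine-rich repeats known from neurons, was at a low level. It had 0, 2 and 3 reads in +/- libraries, 36, 23 and 33 in R111G/+ libraries, 16, 13 and 13 in R111G/- libraries and 1, 0 and 0 in -/- libraries. The fitted difference of R111G/+ over +/- was 3.84 ± 0.59 (adjusted p = 0.0176, edgeR), and with so few control reads its size is uncertain. *Cadm1*, an immunoglobulin-type adhesion molecule through which germ and Sertoli cells attach, was at 34.6, 40.4 and 39.7 CPM in +/- gonads and at 98.7, 82.6 and 84.4 CPM in R111G/+ gonads, a 2.32-fold rise (adjusted p = 0.0176). Its R111G/- and -/- levels of 26.4 ± 7.21 and 18.5 ± 4.37 CPM were lower than in either genotype with a wild-type allele. *Exoc6*, a subunit of the exocyst that tethers secretory vesicles, went from 16.8, 17.2 and 14.8 CPM to 30.0, 35.7 and 37.9 CPM (2.12-fold, adjusted p = 0.0155), the smallest called rise.

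Of the remaining called rises, *Prox1* encodes a homeobox transcription factor known from lymphatic endothelium and liver. It was at 3.69, 2.46 and 3.10 CPM in +/- gonads and at 12.6, 12.6 and 9.32 CPM in R111G/+ gonads (log2 1.89 ± 0.28, adjusted p = 0.0155, edgeR). Levels were about as high in R111G/- gonads (12.5 ± 3.22 CPM) and in -/- gonads (13.8 ± 3.89 CPM), so +/- was the genotype that stood apart. *Kcnc4*, a voltage-gated potassium channel, was at 1.15, 1.09 and 1.83 CPM in +/- gonads and at 10.4, 8.05 and 15.8 CPM in R111G/+ gonads (log2 3.06 ± 0.49, adjusted p = 0.0216). *Ntn4*, a netrin of basement membranes, had 1.53, 4.79 and 2.96 CPM against 12.3, 12.6 and 16.7 CPM (log2 2.17 ± 0.38, adjusted p = 0.0431). Both were below 6 CPM in every R111G/- and -/- library. The long noncoding RNA *Gm40552* had 3, 2 and 8 reads in +/- libraries and 72, 52 and 61 in R111G/+ libraries (log2 3.52 ± 0.47, adjusted p = 0.0155), and 0 reads in all -/- libraries, which allows up to 3 reads a library.

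*Capza1-ps1*, a pseudogene of the actin capping gene *Capza1*, had the smallest p of all genes. Its levels were 5.98, 5.20 and 4.65 CPM in +/- gonads and 41.7, 42.5 and 39.1 CPM in R111G/+ gonads, a log2 difference of 2.95 ± 0.17 (adjusted p = 4.2e-06, edgeR). The R111G/- and -/- libraries were all between 4.45 and 6.97 CPM. *Capza1* itself, named here after its values were seen, was at 135, 117 and 99.2 CPM against 85.9, 86.8 and 81.7 CPM. The sum of both was 122 ± 18.6 CPM in +/- gonads and 126 ± 4.48 CPM in R111G/+ gonads, and the pseudogene took 4.24, 4.25 and 4.48% of it against 32.6, 32.8 and 32.4%. The copies could share reads, so the rise of the pseudogene is uncertain as a change in transcription, and how reads were divided between the copies was not tested.

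**Figure D2:**
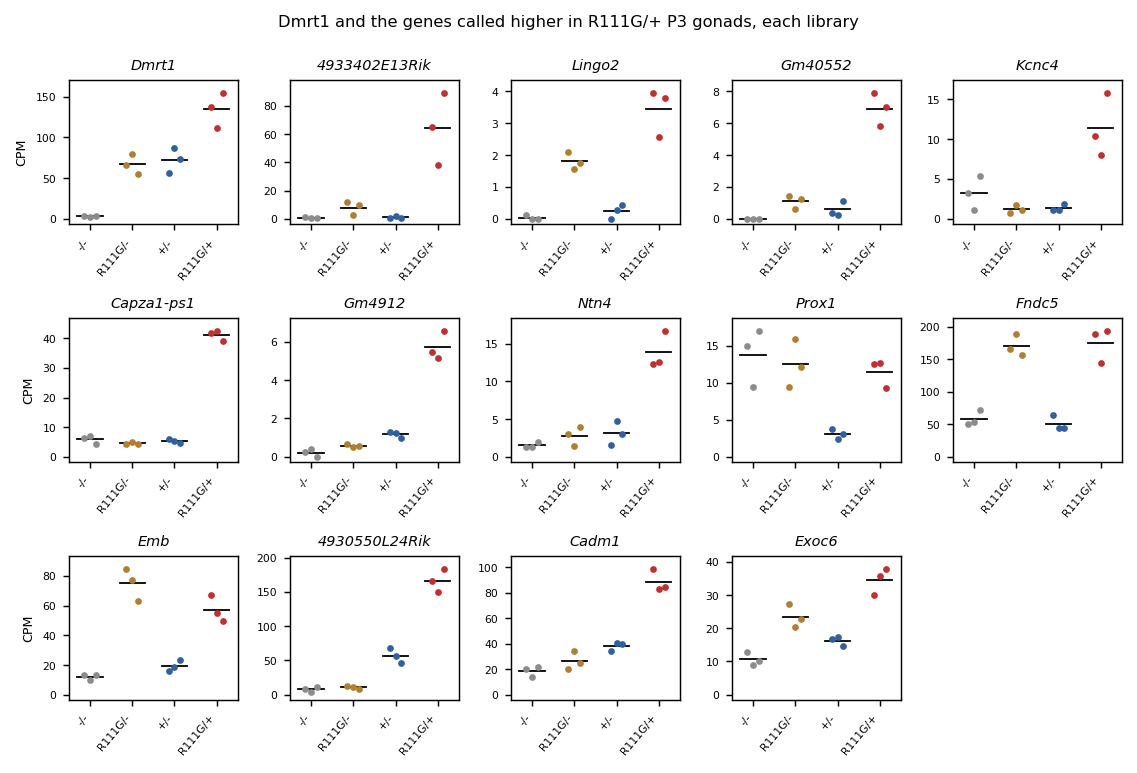
*Dmrt1* and the 13 genes called higher in R111G/+ than in +/- P3 gonads, in CPM, with 1 point for each library of 4 P3 genotypes and a line at the mean of 3. *Dmrt1* (not called) is highest in R111G/+, lowest in -/-, and alike in +/- and R111G/-. *Fndc5* and *Emb* are high in both genotypes with an R111G allele. *4930550L24Rik* and *Cadm1* are highest in R111G/+, and *Prox1* is low in +/- alone.

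The 8 genes called lower were all protein-coding, and none was high in the controls, with +/- means from 3.94 to 23.1 CPM. *Kcng2*, a modifying subunit of voltage-gated potassium channels on chromosome 18, fell from 16.4, 11.4 and 19.3 CPM to 3.18, 2.46 and 3.68 CPM (log2 -2.33 ± 0.26, adjusted p = 0.0020, edgeR), with 3.39 ± 0.442 CPM in R111G/- and 5.95 ± 1.34 CPM in -/- gonads. It was thus low in every genotype other than +/-. P7 control Sertoli cells held 71.3 ± 14.5 CPM of *Kcng2*, and P7 *Dmrt1* -/- cells 16.6 ± 6.67 CPM.

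The other called losses were deepest in R111G/+ gonads. *Gldn* encodes gliomedin, which gathers sodium channels at nodes of Ranvier. It was at 26.6, 4.51 and 18.9 CPM in +/- gonads and at 0.548, 0.894 and 0.230 CPM in R111G/+ gonads (log2 -4.86 ± 0.76, adjusted p = 0.0187, edgeR), and at 19.3 ± 13.7 and 8.70 ± 1.44 CPM in R111G/- and -/- gonads. *Zar1*, an oocyte gene needed for the start of embryonic development, had 49, 12 and 28 reads in +/- libraries and 1, 4 and 1 in R111G/+ libraries (log2 -4.05 ± 0.64, adjusted p = 0.0206). *Ky*, a muscle protein with a transglutaminase-like domain, fell from 20.8, 7.11 and 9.58 CPM to 0.767, 1.34 and 1.38 CPM (log2 -3.41 ± 0.50, adjusted p = 0.0155). Muscle itself was next to absent, with *Ckm*, the creatine kinase of muscle, between 0.219 and 1.56 CPM in the 6 libraries. The defining oocyte genes were low too, and *Gdf9* was between 1.5 and 2.67 CPM in the 6 libraries.

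*Cnga1*, a subunit of the cyclic nucleotide-gated channel of rod photoreceptors, was at 31.7, 16.1 and 21.4 CPM in +/- gonads and at 6.03, 3.80 and 1.73 CPM in R111G/+ gonads (log2 -2.57 ± 0.38, adjusted p = 0.0155, edgeR). It lies 22.4 kb from *Zar1* on chromosome 5, which makes them the closest pair among the called genes, and both were lower. The plasma protein gene *Ahsg* (fetuin-A) was at 17.3, 8.21 and 12.5 CPM against 2.52, 1.90 and 1.27 CPM (log2 -2.73 ± 0.43, adjusted p = 0.0187). *Bmerb1* had the smallest called fall, from 7.0, 6.16 and 8.31 CPM to 3.07, 2.57 and 2.53 CPM (adjusted p = 0.0264). It was the one lower gene whose -/- gonads, at 14 ± 2.69 CPM, lay above all +/- libraries. In 7 of the 8 lower genes +/- replicate 2 had the lowest +/- level, and without it 22 genes rather than 8 were called lower. That library was rich in red cell transcripts and also had the highest summed germ cell markers of its group, at 720 CPM. In 8 of the 13 higher genes R111G/+ replicate 2 had the lowest R111G/+ level.

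**Figure D3:**
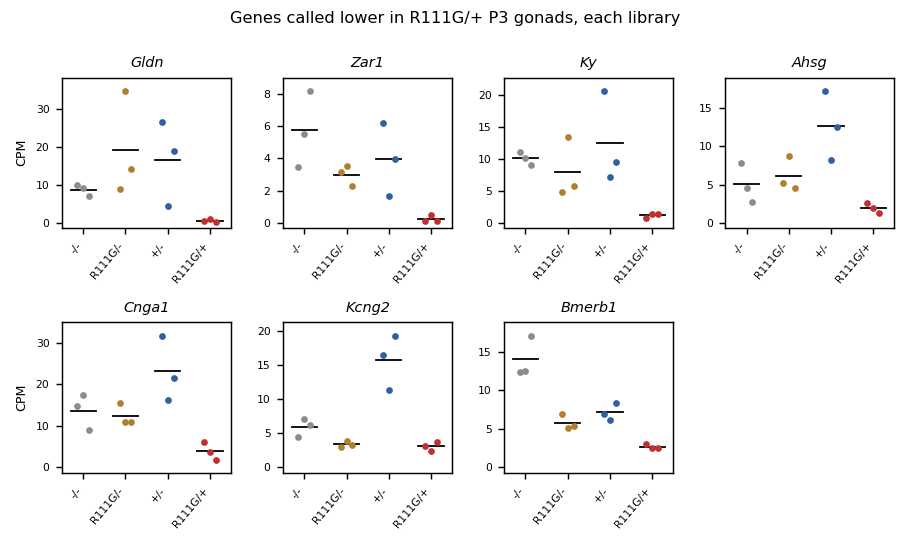
The levels of 7 genes called lower in R111G/+ than in +/- P3 gonads, in CPM, with 1 point for each library of 4 P3 genotypes and a line at the mean of 3. No R111G/+ library reaches the lowest +/- library; *Kcng2* is also low in R111G/- and -/- gonads, while *Gldn*, *Zar1* and *Ky* are not.

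The other P3 genotypes share these libraries, so their contrasts are given side by side and not as independent tests. Of the 21 genes, 12 were also called in R111G/+ against R111G/- gonads, where 0.461% of all genes were called, and 18 in R111G/+ against -/- gonads, where 1.89% were. Against +/- gonads, 5 moved the same way and were called in R111G/- gonads (0.196% of all genes), with *Prox1*, *Fndc5*, *Emb* and *Kcng2* among them. In -/- against +/- gonads (0.511% of all genes) 3 were called in the same direction, with *Prox1* and *Kcng2* among them, and 2 in the opposite one, *4930550L24Rik* (log2 -2.86) and *Cadm1* (log2 -1.05).

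The 11 tested genes of the interferon list had 6 positive and 5 negative values with a median of 0.0648, and none was called. *Ifi204* stood at 0.767, 54.7 and 1.27 CPM in the R111G/+ libraries, high in 1 of them alone. Just outside the adjusted p lay *Sfrp4*, a secreted inhibitor of Wnt signaling, with 37.0, 17.1 and 21.7 CPM against 11.5, 10.6 and 8.98 CPM (log2 -1.29, adjusted p = 0.0537, edgeR), and *Epha5*, an ephrin receptor, with 3.18, 2.33 and 3.80 CPM against 14.8, 14 and 10.6 CPM (log2 2.08, adjusted p = 0.0528).

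None of the sex-determining genes that the study follows was called at P3. *Sox9*, the transcription factor that starts Sertoli cell fate, was at 138, 114 and 147 CPM in +/- gonads and at 152, 140 and 168 CPM in R111G/+ gonads, which overlap (log2 0.20, adjusted p = 1.00). The related *Sox8* was at 127, 113 and 113 against 168, 130 and 138 CPM (log2 0.30, adjusted p = 0.929). *Foxl2*, the transcription factor that keeps granulosa cells female, was near the limit of detection, at 1.02, 0.410 and 1.13 CPM against 0.219, 0.447 and 0.345 CPM (adjusted p = 0.772). No gain of *Foxl2* was thus detectable at this depth. For *Esr2*, which encodes estrogen receptor beta, the values of 13.6, 5.74 and 9.30 CPM and of 9.43, 13.1 and 11.7 CPM overlapped, as did those of *Nr5a2*, encoding the nuclear receptor LRH1, at 4.97, 7.93 and 9.86 against 11.7, 6.59 and 11 CPM.

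Steroid enzymes and junction genes gave no call either. *Cyp19a1*, the aromatase gene, had 1 read in the 6 libraries together and was not tested. *Hsd17b3*, which makes testosterone, was at 181, 112 and 168 CPM against 115, 110 and 90.9 CPM (log2 -0.54, adjusted p = 0.871). *Ocln*, which encodes the tight junction protein occludin, was at 14.8, 24.9 and 30.7 CPM against 45.6, 36.3 and 35.2 CPM. Its groups did not overlap and the log2 difference was 0.74, but the adjusted p was 0.778, and R111G/- and -/- gonads held 4.64 ± 0.505 and 4.80 ± 2.65 CPM. The 15 tested genes of tight and gap junctions had a median of 0.112, with 12 positive values. Of the cystatins *Cst9*, *Cst12* and *Cstdc1*, all 3 overlapped, with log2 differences of -0.27, 0.23 and -0.28.

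The 31 gene lists cover cell types, pathways, sample checks and genes near *Dmrt1*. None of them had a called member in either direction, against 0.0821% and 0.0505% of all genes. The 27 tested Sertoli cell markers had a median log2 fold change of -0.12, with 9 positive values. The largest differences among them were those of *Fshr*, the receptor for follicle-stimulating hormone, at 46.6, 28 and 37.8 CPM against 23.3, 23 and 20.5 CPM (log2 -0.75, adjusted p = 0.26), and of *Vnn1*, a pantetheinase, at -0.82 (adjusted p = 0.462). *Nr5a1*, the nuclear receptor of steroid-making and supporting cells, was at 313, 256 and 329 CPM against 235, 232 and 207 CPM (log2 -0.41, adjusted p = 0.261). The 22 granulosa and ovary-determining genes had a median of -0.18 and the 13 Leydig cell genes of -0.00198. Lists of myoid, stromal and endothelial cells had medians of 0.17, 0.0709 and -0.0341. In whole gonads, fewer cells of a type and less RNA per cell cannot be told apart.

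Germ cell markers stood higher on average but varied as much within a genotype. Of 14 tested, 13 had positive values, with a median of 0.49, and none had groups that do not overlap. Their sum was 240, 720 and 409 CPM in +/- libraries and 852, 296 and 711 CPM in R111G/+ libraries. *Gfra1*, the GDNF co-receptor of spermatogonial stem cells, followed the same libraries at 15.7, 47.1 and 35.9 CPM against 73.6, 24.3 and 54.8 CPM (adjusted p = 0.972, edgeR). With each library's germ cell sum as a covariate, chosen after seeing the data, all 21 genes were called, among 15 higher and 9 lower in all.

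The 8 tested erythroid genes were the list farthest from 0, all negative with a median of -1.18, which was -0.28 without +/- replicate 2. *Hbb-bt*, a beta-globin gene, was at 100, 343 and 123 CPM against 55.6, 96.0 and 60.8 CPM (log2 -1.41, adjusted p = 0.357, edgeR), with +/- replicate 2 as the high one. Without that library its difference was -0.65 (adjusted p = 0.591, edgeR). Macrophage markers had a median of 0.39 over 14 genes with 12 positive values. *Sox10*, a relative of *Sox8* and *Sox9* known from neural crest, was at 0.891, 3.28 and 2.68 CPM against 13.5, 6.15 and 7.94 CPM, the smallest adjusted p of the Dmrt and Sox list after *Dmrt1* (log2 2.01, adjusted p = 0.0653).

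**Figure D4:**
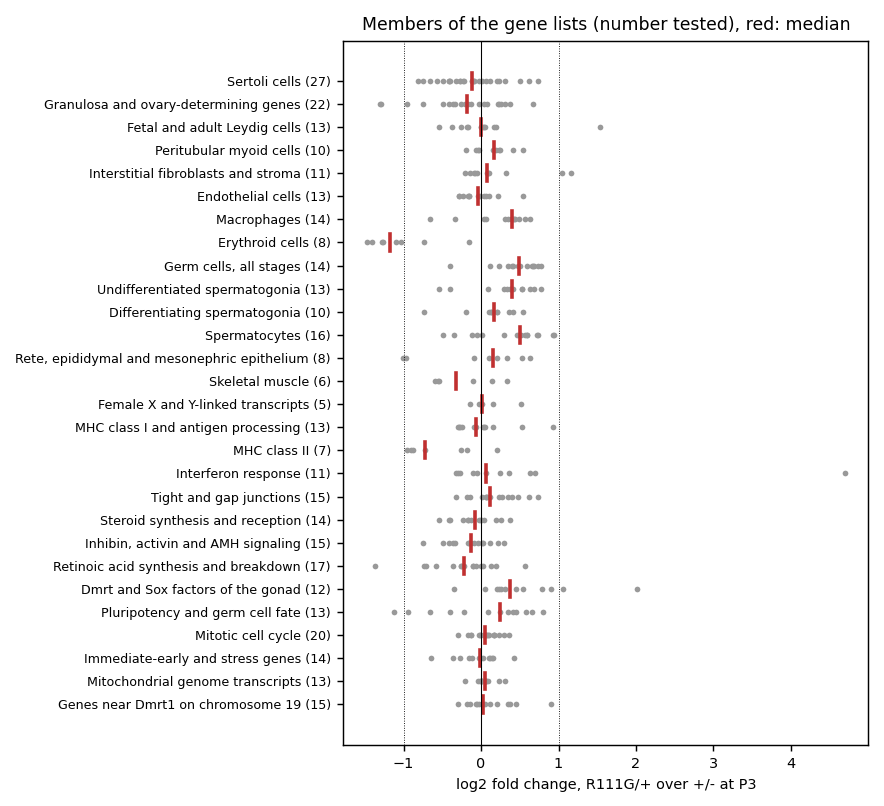
Log2 fold change of R111G/+ over +/- P3 gonads for each tested member (grey points) of the gene lists with 5 or more tested members, with the list median in red and dotted lines at 2-fold. Medians lie within 0.5 of 0 for all lists shown other than erythroid cells (-1.18) and MHC class II (-0.72).

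The same genotypes were measured at P28 in other libraries, and there the R111G/+ to +/- difference was far wider, with 7298 of 20952 tested genes called (34.8%), 1407 higher (6.72%) and 5891 lower (28.1%). Of the 21 genes called at P3, 18 could be tested at P28. Among the 11 higher ones tested, 7 were also higher at P28 and 1, *Lingo2*, was called, at 5.49 ± 1.80 against 1.03 ± 0.498 CPM (log2 2.40, adjusted p = 0.00126, edgeR). That is 9.09% of them, near the 6.72% of all genes. At any fold, 6 of the 11 were higher with a P28 adjusted p under the threshold (54.5%, against 16.9% of all genes): *Lingo2*, *Gm4912*, *Ntn4*, *Fndc5*, *Emb* and *Exoc6*, the last 5 with log2 values from 0.59 to 0.92. Among the 7 lower ones tested, 6 were lower at P28 and 4 were called, with *Bmerb1*, *Kcng2* and *Cnga1* among them, which is 57.1% of them against 28.1% of all genes. The same 4 passed at any fold, against 34.9% of all genes. None was called in the opposite direction, although *Ahsg* was higher at P28 under the fold limit (log2 0.98, adjusted p = 0.0358, edgeR).

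Other P3 differences were not seen at P28. At that age *4933402E13Rik* was at 141, 162 and 171 CPM in +/- testes and 131, 177 and 151 CPM in R111G/+ testes, and *4930550L24Rik* was at 78.2, 106 and 110.9 against 77.8, 117 and 104 CPM. In -/- gonads of that age they held 0.423 ± 0.176 and 1.22 ± 0.354 CPM. *Cadm1* was likewise level at P28, at 150 ± 20.5 in +/- and 141 ± 28.5 CPM in R111G/+ testes. A direct test of the age difference used 1 fit of the 12 libraries of both genotypes and ages. It was called for 10 of the 21 genes, and for 11.6% of all 19975 genes in that fit. The 21 genes were picked by their P3 difference in libraries that this test uses again, so the 2 shares cannot be compared fairly. For *4933402E13Rik* the P3 effect exceeded the P28 effect by 5.85 (log2, adjusted p = 0.00027), for *4930550L24Rik* by 1.57 (adjusted p = 0.00597) and for *Cadm1* by 1.34 (adjusted p = 0.00636). *Ahsg* turned, from -2.73 at P3 to 0.98 at P28.

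**Figure D5:**
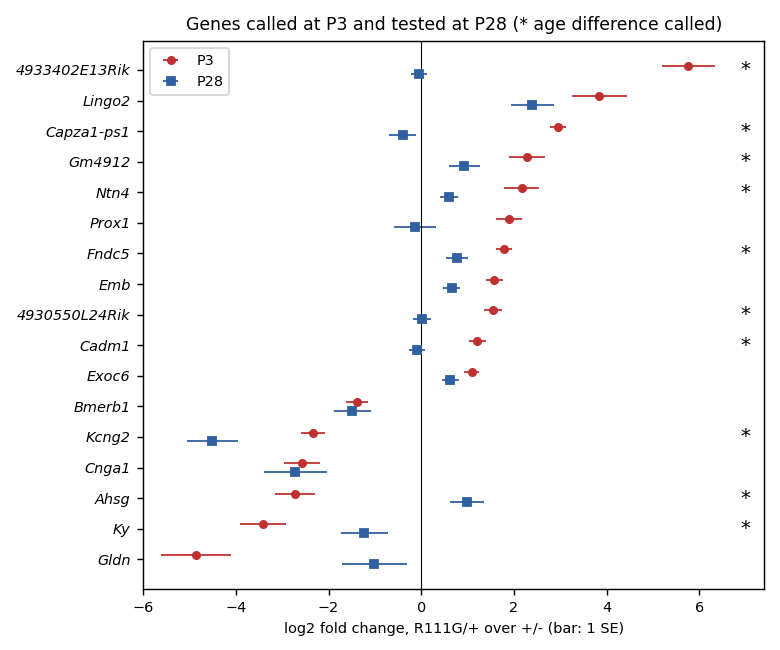
Log2 fold change of R111G/+ over +/- gonads at P3 (red circles) and P28 (blue squares) with bars of 1 SE, for 17 genes called at P3 and tested at P28. Stars mark an age difference called in 1 fit of both ages; *Bmerb1* and *Cnga1* have like values at both ages, while *4933402E13Rik* and *4930550L24Rik* lie near 0 at P28.

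The called genes were spread over 13 chromosomes, with 3 each on chromosomes 9 and X. None lay within 2, 5 or 10 Mb of *Dmrt1*, where 21, 58 and 98 genes were tested, and the median over the 10 Mb window was 0.0275. Over all tested genes 0.133% were called, so the lack of a call in windows this small says little. *Exoc6* was the only called gene on chromosome 19. Near *Dmrt1*, the paralogs *Dmrt3* and *Dmrt2*, named after their values were seen, were at 5.46 ± 2.26 and 1.69 ± 1.12 CPM in +/- gonads and at 5.63 ± 1.18 and 2.30 ± 2.01 CPM in R111G/+ gonads.

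RefSeq promoters, from 250 bases before to 50 after a gene's start, were found for 14 of the 21 called genes, 17 starts in all. They were searched on both strands for ACATTGT, the core of the sequence that DM domain proteins bind, whose reverse complement is ACAATGT. It was in 0 of the 17, in 1.57% of the 14502 promoters of tested genes and in 2.96% of all 32851 promoters. No match says only that these letters are not in these windows. The promoters of the called X-linked genes are printed for the 2 with the highest R111G/+ levels, in lower case with CG dinucleotides, the sites of DNA methylation, in capitals (GRCm38.p6, plus strand, chrX:62283249-62283548 and chrX:58911211-58911510):
*4933402E13Rik*: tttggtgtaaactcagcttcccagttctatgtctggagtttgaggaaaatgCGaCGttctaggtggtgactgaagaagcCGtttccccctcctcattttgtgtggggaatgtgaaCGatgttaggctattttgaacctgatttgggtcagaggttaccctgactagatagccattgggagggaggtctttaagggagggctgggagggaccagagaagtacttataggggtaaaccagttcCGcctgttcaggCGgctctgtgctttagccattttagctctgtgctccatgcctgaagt
*4930550L24Rik*: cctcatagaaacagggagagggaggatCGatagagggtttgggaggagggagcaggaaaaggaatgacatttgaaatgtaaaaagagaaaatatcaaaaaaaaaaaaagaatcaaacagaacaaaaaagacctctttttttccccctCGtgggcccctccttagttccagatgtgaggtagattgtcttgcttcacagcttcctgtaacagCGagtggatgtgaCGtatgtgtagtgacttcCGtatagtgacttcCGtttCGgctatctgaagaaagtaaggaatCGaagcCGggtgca
They hold 6 and 9 CG dinucleotides, and 49.3% and 43.7% of their bases are G or C, whereas the median promoter of the tested genes holds 20 and 60.7%. *Fndc5*, by contrast, starts in a stretch with 48 CG dinucleotides and 82.3% G or C.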

How the data were processed

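Whole-gonad RNA was sequenced by the authors as read pairs from stranded mRNA libraries. Per the methods and the submitters' processing notes, trimming used Trim Galore 0.6.0 with cutadapt 1.18, alignment used STAR 2.7.2a against GRCm38 (mm10), and reads were assigned to GENCODE M25 genes. The authors deposited raw counts, which are whole numbers in 1 column per library, and 0 columns lacked a sample. P3 totals ran from 7035359 to 9101672 counts.

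The 12 P3 libraries entered 1 quasi-likelihood fit in edgeR 4.0.16 (R 4.3.3), after filterByExpr and TMM scaling. Calls needed an adjusted p (Benjamini-Hochberg) under 0.05 together with a change over 2-fold, which are the study's thresholds. Unless another tool is named, adjusted p-values are from this test over all genes, and each SE was derived from the log2 fold change and its F value. P28 libraries were fitted alike, the age difference as an interaction in 12 libraries, and P7 levels were scaled separately without a test. Positions came from GENCODE M21, which held 15826 of the tested genes. The fit was tested on simulated counts.

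Named genes are *Dmrt1*, genes the study names, called genes averaging 1 CPM or more whose groups did not overlap (up to 12 each way, predicted symbols passed over), up to 4 predicted called genes each way, up to 4 members of each list by adjusted p, and called genes within 5 Mb of *Dmrt1*. Exceptions are marked, and some genes that the rule names, 1 called gene among them, are not reported here. The members and lists were chosen with earlier results of these data known. Deviations of same-numbered R111G/+ and +/- libraries correlated at -0.101, -0.241 and -0.0559, and those of differently numbered ones from -0.197 to 0.248. With so few libraries these values cannot decide whether the numbers mark pairs, and the labels do not say. Alternatives were DESeq2 1.42.0, limma-voom (limma 3.58.1), other scalings and filters, the 6 libraries alone, a replicate block, each library left out, and a germ cell covariate. ChIP-seq was not analysed here and the Hi-C list was not used.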

Additional observations from a re-analysis of the deposited data

Results flagged for a closer look

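The R111G/+ effect differed between P3 and P28 beyond the threshold (edgeR interaction, fold over 2) for 10 of the genes called at P3. As P3 minus P28 (log2), the difference was 5.85 for *4933402E13Rik* (adjusted p = 0.00027), 3.4 for *Capza1-ps1* (0.00133), -3.68 for *Ahsg* (0.00487), 1.57 for *4930550L24Rik* (0.00597) and 1.34 for *Cadm1* (0.00636). It was 1.62 for *Ntn4* (0.0276), 2.22 for *Kcng2* (0.0369), 1.4 for *Gm4912* (0.0371), -2.14 for *Ky* (0.0413) and 1.06 for *Fndc5* (0.0428). *Kcng2* fell at both ages, by 2.33 at P3 and by 4.51 at P28, and *Fndc5* had values of 1.79 and 0.77.

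Some genes not called at P3 met the same rule. *Esr2* went from 0.25 at P3 to 3.69 at P28 (difference -3.39, adjusted p = 0.00862), with 0.234 ± 0.167 CPM in P28 +/- testes and 3.24 ± 1.1 CPM in P28 R111G/+ testes. *Nr5a1* (-1.37, adjusted p = 0.0113), *Esr1* (-1.7, 0.0138) and *Hsd17b3* (-1.86, 0.0269) had negative values at P3 and positive ones at P28. *Mfap5*, a microfibril protein, differed by 1.82 (0.0306), and *Bambi*, a pseudoreceptor for TGF-beta signals, by 1.07 (0.0371).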

How the results depend on the processing

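Of the 21 calls, 6 (*Capza1-ps1*, *Fndc5*, *Emb*, *Kcng2*, *4930550L24Rik*, *4933402E13Rik*) were kept under all 15 alternatives that could lose them, the log2 fold change of *4933402E13Rik* running from 5.45 to 6.3. DESeq2 called 40 higher and 39 lower, and no filter on low counts 101 and 88, each with all 21. Lower calls were 4 with the 6 libraries alone and 3 with limma-voom. The replicate block, whose numbers are not known to mark pairs, left 9 higher and 5 lower, 12 of the 21. Leaving out 1 library gave 7 to 15 higher and 1 to 22 lower calls. The lowest total came without R111G/+ replicate 3 (7 and 1, with 7 of the 21 kept). Without +/- replicate 1 it was 8 and 3, without +/- replicate 3 it was 9 and 3, and without R111G/+ replicate 1 it was 7 and 2. *Bmerb1* was lost under 8 of these alternatives. *Dmrt1* ran from 0.75 to 1.06 over these, and passed both thresholds without +/- replicate 2 (1.06, adjusted p = 0.0356). Its adjusted p ran from 3.43e-09 (no filter) to 0.249 (without R111G/+ replicate 3), with 0.000754 by DESeq2 at 0.91, under the fold limit. The age difference was called for 1196 to 1880 genes with 1 library left out, and for 1556 with the replicate block, an alternative chosen after seeing the data. With 1 library left out, uncalled *Esr2* ranged from 0 (without +/- replicate 2) to 0.61, and uncalled *Hsd17b1* from -0.51 to 0.08 (without +/- replicate 1), a change of sign. Causes were not tested. *Foxl2*, at or under 1.13 CPM in all 6 libraries, rests on few reads, and no difference in it was detectable at this depth.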
